A study of Mus musculus with 10 samples.

Results

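The 38 genes described here encode the enzymes, transporters and close regulators of glycolysis and the pentose phosphate pathway. They were chosen by name, as a fixed list of pathway members, from 21883 protein-coding genes on the assembled mouse chromosomes. CUT&Tag, in which a transposase is tethered to an antibody on chromatin and inserts sequencing adaptors beside it, had been used to map the histone chaperone NPM1 and histone H3 trimethylated at lysine 4 (H3K4me3) in mouse macrophages. The NPM1 libraries came from wild-type (WT) cardiac macrophages on day 3 after a sham operation or after myocardial infarction, and from WT bone marrow-derived macrophages (BMDM) that were untreated or had received 20 ng/ml IL-4 for 12 hours. These BMDM had been grown for 7 days in 50 ng/ml M-CSF. H3K4me3 was mapped in cardiac macrophages on day 3 after infarction, from WT mice and from Npm1-cKO mice, in which Npm1 is conditionally deleted. Each of these 6 groups is 1 library, so differences between them were not checked in replicates and carry no p-value. Of the 10 libraries of the series, 4 were not analysed here, all from BMDM that had received IL-4: WT and Npm1-cKO, each with H3K4me3 and with K5. The sources used here do not give the driver of the deletion, the deleted part of Npm1, the age of the mice or any pooling of animals.

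Glycolysis splits glucose into pyruvate and yields ATP without oxygen, and macrophages are known to turn it up when they are activated or short of oxygen. Its flux is set mainly at glucose uptake, hexokinase, phosphofructokinase and pyruvate kinase, and pyruvate then either becomes lactate or enters mitochondria through pyruvate dehydrogenase, which the pyruvate dehydrogenase kinases switch off. The pentose phosphate pathway branches off at glucose 6-phosphate and makes NADPH and ribose. HIF-1, whose oxygen-regulated subunit is encoded by Hif1a, binds short sites with the core ACGTG or GCGTG and is known to switch on many glycolytic genes. H3K4me3 marks the starts of genes that are active or ready to be transcribed.

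A gene-end peak is a called peak that reaches within 1 kb of an end of the gene in RefSeq's GRCm38.p6 table, the assembly that mm10 names. RefSeq also lists transcription starts for 37 of the 38 members (all but Slc2a3) and for 17491 genes in all. Where several are listed, the marked start is the one with the most bases under H3K4me3 peaks within 1 kb. Fold is the authors' enrichment at the summit of the highest peak, that is the pileup of reads over the local background, and covered bases are those under any peak within 2 kb of the position named. The lists held 52977 to 104514 peaks, and the genome-wide background, which scales with depth, was 1.29 reads in sham, 3.03 in infarct, 1.31 in untreated, 4.18 in IL-4, 2.92 in WT H3K4me3 and 2.49 in knockout H3K4me3. Sham and untreated NPM1 libraries were thus the shallowest, and they also had few peaks at gene starts of any kind. Of 8 macrophage marker genes, 8 had a gene-end peak in infarct (50.6% of all genes) and 8 in IL-4 (51.2%). In sham 2 had one (10.9%) and in untreated 0 (6.71%). H3K4me3 gave 7 in WT (57.1%) and 8 in knockout (61.8%). Of 7 cardiomyocyte genes, 1 had one in sham, 2 in infarct, 0 in untreated and 1 in IL-4. In WT 1 had one and in knockout 0, beside the same shares of all genes. These were Actc1 (sham, infarct and WT), Myl2 (infarct) and Tnni3 (IL-4), while Myh6, Tnnt2, Ryr2 and Nppa had none in any list. In infarct NPM1, 1 of 6 fibroblast, 2 of 5 endothelial, 1 of 5 neutrophil and 1 of 5 T and B cell genes had one. In the same order the counts were 1, 3, 1 and 2 in IL-4, 1, 0, 1 and 0 in sham, and 0 each in untreated. The gene-end H3K4me3 peak of Npm1 itself had folds of 7.60 (WT) and 7.97 (knockout), which does not check the deletion, since the deleted part is not known here. A weaker peak can reflect fewer cells with the target at a site or less of it per cell, and these cannot be told apart.

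The 250 bases before the marked start are shown for 7 members, from RefSeq (GRCm38.p6), 5′ to 3′ on the strand of the gene. The first 4 had the highest NPM1 folds of the members after infarction, Ldha held the most matches to the HIF-1 core, and Pdk3 and Pdk4 had no NPM1 peak at their start. Capitals mark ACGTG or GCGTG on either strand, so CACGT and CACGC are the same words read from the other strand, and the palindrome CACGTG counts as 2 matches.
Hif1a, chr12:73907617-73907866, plus strand: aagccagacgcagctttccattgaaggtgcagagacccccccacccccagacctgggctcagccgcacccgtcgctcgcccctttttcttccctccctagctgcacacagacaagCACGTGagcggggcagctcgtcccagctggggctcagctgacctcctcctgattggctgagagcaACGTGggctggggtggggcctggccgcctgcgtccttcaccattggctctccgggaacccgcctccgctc
Hk2, chr6:82774455-82774704, minus strand: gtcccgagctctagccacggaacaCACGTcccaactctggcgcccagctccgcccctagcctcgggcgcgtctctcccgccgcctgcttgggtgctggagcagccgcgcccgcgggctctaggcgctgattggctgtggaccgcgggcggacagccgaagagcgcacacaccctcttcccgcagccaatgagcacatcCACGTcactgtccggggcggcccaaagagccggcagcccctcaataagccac
Pgam1, chr19:41911621-41911870, plus strand: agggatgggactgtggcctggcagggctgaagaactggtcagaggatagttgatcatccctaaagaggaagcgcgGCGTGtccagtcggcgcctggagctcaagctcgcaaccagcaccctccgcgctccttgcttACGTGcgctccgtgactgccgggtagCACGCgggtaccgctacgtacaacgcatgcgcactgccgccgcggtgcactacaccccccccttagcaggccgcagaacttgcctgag
Pfkfb4, chr9:108991652-108991901, plus strand: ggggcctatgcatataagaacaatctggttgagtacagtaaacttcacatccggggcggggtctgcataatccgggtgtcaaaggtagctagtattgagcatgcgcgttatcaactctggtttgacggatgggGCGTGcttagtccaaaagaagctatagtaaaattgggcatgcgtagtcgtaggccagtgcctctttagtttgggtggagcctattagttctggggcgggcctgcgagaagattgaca
Ldha, chr7:46845554-46845803, plus strand: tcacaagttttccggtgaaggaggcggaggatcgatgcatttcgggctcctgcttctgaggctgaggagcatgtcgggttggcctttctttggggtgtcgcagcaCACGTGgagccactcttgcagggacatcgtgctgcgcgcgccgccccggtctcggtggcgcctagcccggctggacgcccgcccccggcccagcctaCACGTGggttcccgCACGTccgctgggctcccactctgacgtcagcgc
Pdk3, chrX:93832151-93832400, minus strand: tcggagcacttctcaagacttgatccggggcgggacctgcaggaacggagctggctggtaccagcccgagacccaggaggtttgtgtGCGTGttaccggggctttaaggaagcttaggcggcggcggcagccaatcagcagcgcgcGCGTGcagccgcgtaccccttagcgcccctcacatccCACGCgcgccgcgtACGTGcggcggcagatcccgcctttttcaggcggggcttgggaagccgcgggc
Pdk4, chr6:5496279-5496528, minus strand: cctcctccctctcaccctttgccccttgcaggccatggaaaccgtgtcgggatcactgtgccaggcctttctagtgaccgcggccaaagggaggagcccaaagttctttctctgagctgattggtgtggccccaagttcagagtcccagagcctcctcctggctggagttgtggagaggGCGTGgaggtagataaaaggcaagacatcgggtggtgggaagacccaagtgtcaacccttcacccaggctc
These letters describe the sequence only and do not show that a factor bound. Of the 37 member windows, 31 (83.8%) held ACGTG or GCGTG, against 44.4% of all 17491 windows of the same length and 57.8% of the 10107 whose start carried a WT H3K4me3 peak. The 6 without it were those of Gpi1, Tpi1, Eno2, Bpgm, Pkm and Pgd. CACGTG was in 6 member windows (16.2%, against 6.65% of all and 8.48% of the H3K4me3-marked ones). They were those of Ldha, with 2 copies, Hif1a, Pfkfb3, Pfkm, Slc16a1 and Pdk2. Members were also rich in G and C, with a median of 61.2% against 55.6% for all windows and 60.8% for the H3K4me3-marked ones. TATAAA, searched on both strands like every word here, was in 1 member window (2.7%), that of Eno2. It was in 12.1% of all windows and 6.03% of the H3K4me3-marked ones. GGGCGG was in 62.2% and CCAAT in 43.2% of member windows, against 43.7% and 36.1% of all. Among the H3K4me3-marked windows the shares were 61.9% and 36.2%, so for GGGCGG members were close to other marked starts.

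NPM1 peaks lay at the ends of most members after infarction and with IL-4 and at few in sham and untreated cells. Gene-end peaks were found at 28 of 38 members in infarct (50.6% of all genes), 28 in IL-4 (51.2%), 4 in sham (10.9%) and 3 in untreated (6.71%). H3K4me3 gene-end peaks were found at 31 members in WT (57.1%) and 36 in knockout (61.8%). The sham and untreated counts lay near their backgrounds, and the other 4 lay above theirs. At the gene end with more H3K4me3, the median member had 0 covered bases in sham and in untreated, 755 in infarct, 661.5 in IL-4, 868 in WT and 1676.5 in knockout. Over all genes the medians were 0 in sham and untreated, 200 in infarct, 207 in IL-4, 413 in WT and 993 in knockout.

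At the transcription starts the contrast between NPM1 lists was sharper. Of 37 members with a listed start, 33 had an infarct NPM1 peak within 1 kb of a start (49.6% of all genes with one), 33 an IL-4 peak (49.5%), 3 an untreated peak (5.16%) and 0 a sham peak (6.07%). For H3K4me3 the counts were 35 in WT (57.9%) and 37 in knockout (62.8%). The 4 sham gene-end peaks, at Tpi1, Eno2, Eno3 and Pgd, all lay at the end opposite the start, with folds of 2.42 to 3.46 on 5 to 8 reads. That end of Tpi1 lies within 1 kb of an end of Spsb2. Each list was also thinned to the lowest background by scaling the values of its called peaks, without calling peaks anew. Thinning in this way left 27 members with a gene-end peak in infarct (47.3% of all genes). It left 32 member starts in infarct (46.9% of all genes) and 30 in IL-4 (43.4%). With peaks of −log10 q of 5 or more, 26 remained in infarct (29.4%), 27 in IL-4 (30.6%), 0 in sham (0.28%) and 0 in untreated (0.183%).

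Set against each other at gene ends, 26 members had an NPM1 peak in infarct only (43.4% of all genes), 2 in sham only (3.75%) and 2 in both (7.14%). Eno2 and Eno3 were in sham only, Tpi1 and Pgd in both. Between IL-4 and untreated, 25 were in IL-4 only (46.5%), 0 in untreated only (1.98%) and 3 in both (4.73%), namely Slc2a1, Pfkl and Pfkfb3. At starts, 33 members were in infarct only (46%), and 0 in sham only (2.46%) or in both (3.61%). The IL-4 pair gave 30 in IL-4 only (45.8%), 0 in untreated only (1.4%) and 3 in both (3.76%), which were Pfkl, Pfkfb3 and Hif1a. These 3 untreated peaks were low, with folds of 3.46 to 3.89 on 7 or 8 reads.

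Since starts that carry H3K4me3 are more often NPM1-bound in general, the members were also read against genes of that kind. Of the 35 members with a WT H3K4me3 peak at the marked start, 33 had an NPM1 start peak in infarct and 33 in IL-4 (94.3% each), against 78.7% and 77.8% of the 10107 such genes. The exceptions were Eno2 and Pdk4 in infarct and Ldhb and Pdk4 in IL-4. In sham 0 of the 35 had one (5.95% of such genes), and in untreated 2 had one at the marked start, Pfkl and Hif1a (6.03%). The NPM1 peaks in BMDM are set beside H3K4me3 from infarct macrophages here, which are other cells.

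**Figure D1:**
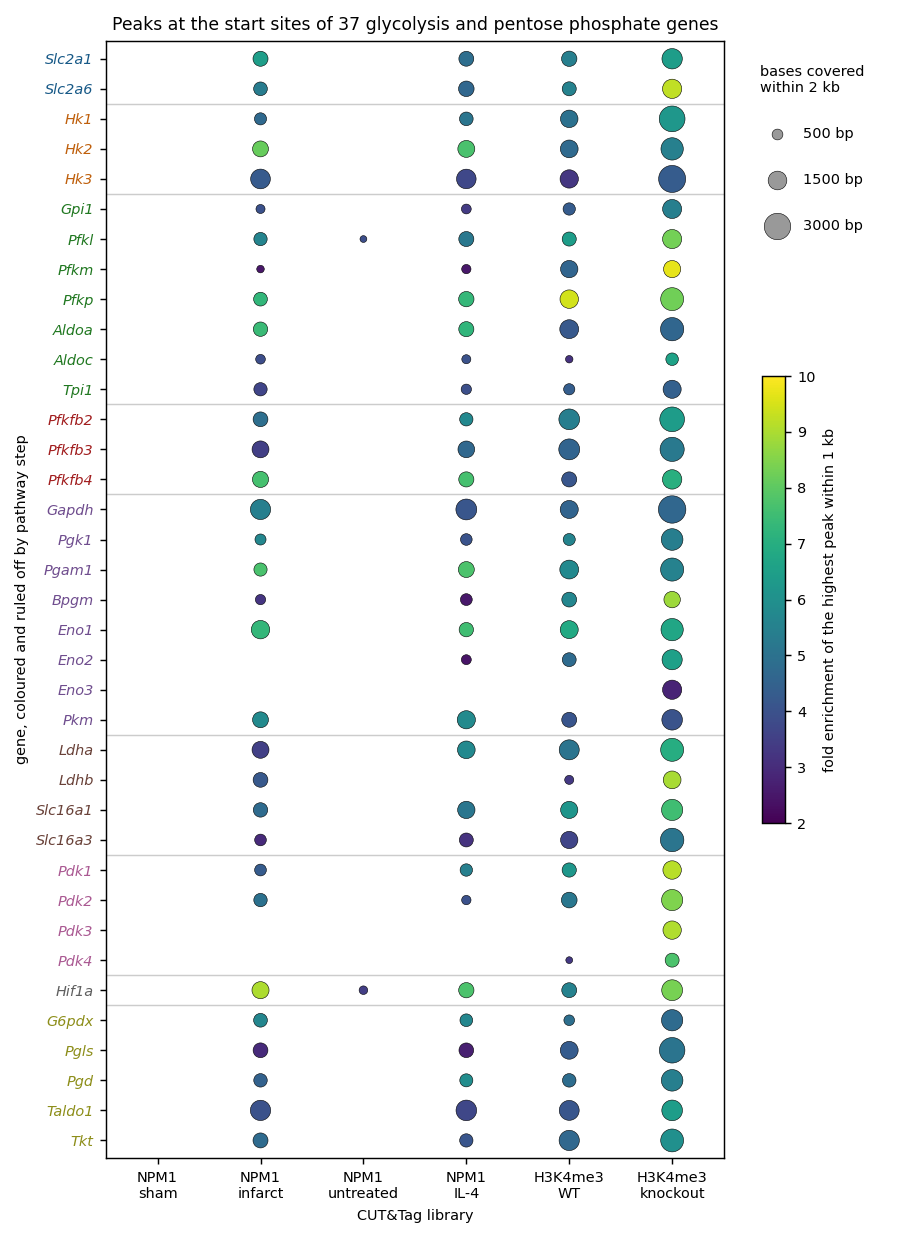
Peaks within 1 kb of the marked start of 37 members (rows, coloured by pathway step) in the 6 libraries (columns); colour is the fold enrichment of the highest peak and area grows with the bases covered within 2 kb. The sham column is empty, the untreated column holds Pfkl and Hif1a (the untreated peak of Pfkfb3 is at its other start), and the knockout column is filled for all 37.

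Among the glucose carriers, Slc2a1, which encodes GLUT1 (chromosome 4, 119108745 to 119137330, plus strand), had start folds of 6.46 in infarct, 4.85 in IL-4, 5.43 in WT H3K4me3 and 6.42 in knockout, and no sham or untreated start peak. Its only untreated gene-end peak lay at the far end of the gene, with a fold of 3.46 on 7 reads. A further untreated peak lay inside the gene, with a fold of 3.66 and its summit 22508 bp from the first end. Slc2a6, a GLUT6 carrier found in myeloid cells, had folds of 5.34, 4.64, 5.51 and 9.23 in the same order. Both uptake genes with a listed start were thus marked in the same 4 lists. Slc2a3, the high-affinity carrier GLUT3 (chromosome 6, 122727809 to 122802363), has no listed start. It had peaks at the end with the higher coordinate, with folds of 3.04 in infarct, 3.09 in IL-4, 4.55 in WT H3K4me3 and 8.58 in knockout and none in sham or untreated.

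Hexokinase traps glucose in the cell as glucose 6-phosphate. Hk2, the inducible form (chromosome 6, 82725025 to 82774454, minus strand), had NPM1 start folds of 8.13 in infarct on 66 reads and 7.70 in IL-4 on 70 reads, with none in sham or untreated. Its H3K4me3 folds were 4.75 in WT and 5.44 in knockout. By fold, Hk2 ranked at percentile 94.7 of infarct NPM1 start peaks and at percentile 42 of WT H3K4me3 start peaks, and by pileup at percentiles 95 and 75.1. Hk3, the myeloid form (chromosome 13, 55005985 to 55021475), had lower folds, of 4.27 in infarct, 3.75 in IL-4, 3.26 in WT and 4.29 in knockout. Its peaks were wide, however. They covered 1668 bp around its start in infarct, 1641 bp in IL-4, 1440 bp in WT and 3135 bp in knockout.

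Hk1, the housekeeping form, had no gene-end peak in any list, and neither had Pfkfb2. Hk1 (chromosome 10, 62268855 to 62379920, minus strand) has 2 listed starts, 1 of them 12 bp from its outer end and bare in all 6 lists. The other, 39499 bp inside, carried folds of 4.71 in infarct, 5.12 in IL-4, 4.99 in WT and 6.24 in knockout, with no sham or untreated peak. Counted at its starts, Hk1 was thus marked in the same 4 lists as Hk2 and Hk3. Pfkfb2, Pfkfb4, Eno3, Ldha and Hif1a likewise have listed starts only 3530 to 14677 bp inside the outer end, which a count at gene ends misses.

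In the first phase, from glucose 6-phosphate to the triose phosphates, phosphofructokinase is the committed step, and its 3 subunit genes differed. Pfkp, the platelet-type subunit (chromosome 13, 6579874 to 6649060), had NPM1 folds of 7.28 in infarct and 7.32 in IL-4 and the highest WT H3K4me3 fold of the members, 9.44, with 8.25 in knockout. Pfkl, the liver-type subunit (chromosome 10, 77986947 to 78009807), had folds of 5.60 in infarct, 3.89 in untreated, 5.19 in IL-4, 6.43 in WT and 8.29 in knockout. It was 1 of the 3 members with an untreated start peak. Pfkm, the muscle-type subunit, had the lowest NPM1 fold of the members in infarct, 2.48 on 9 reads, and 2.51 on 12 reads in IL-4, yet its H3K4me3 fold was 4.58 in WT and 9.71 in knockout.

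Aldoa, the main aldolase (chromosome 7, 126795234 to 126800994), carried the highest NPM1 pileup of the members in infarct, 104 reads at a fold of 7.44, and 105 reads at 7.22 in IL-4. Its H3K4me3 folds were 4.19 in WT and 4.61 in knockout. Aldoc, the brain-type aldolase, had small peaks instead, of 18 reads in infarct, 20 in IL-4, 15 in WT and 61 in knockout. Gpi1, the isomerase, had NPM1 folds of 3.99 in infarct and 3.40 in IL-4, and Tpi1, which interconverts the trioses, 3.64 and 3.91. The starts of Pfkm, Aldoc, Tpi1 and Eno2 lie within 1 kb of an end of another gene (Senp1, Spag5, Usp5 and Lrrc23), so their peaks cannot be assigned to 1 gene.

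The bifunctional Pfkfb enzymes make and break fructose 2,6-bisphosphate, the strongest activator of phosphofructokinase. Pfkfb4 (chromosome 9, 108988272 to 109032236) had NPM1 folds of 7.64 in infarct on 83 reads and 7.63 in IL-4 on 120 reads, the highest pileup of the members in IL-4. Its H3K4me3 folds were 4.13 on 29 reads in WT and 7.04 on 156 reads in knockout. By fold, Pfkfb4 stood at percentile 29.6 of start peaks in the WT H3K4me3 list and at percentile 92.4 for NPM1 in infarct, and by pileup at percentiles 44.4 and 97.7. Pfkfb2 had folds of 4.89 in infarct, 5.75 in IL-4, 5.38 in WT and 6.39 in knockout at the start 13205 bp inside its outer end.

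Pfkfb3, the inducible form (chromosome 2, 11471430 to 11554071, minus strand), has 2 listed starts. At the outer one, 142 bp from the gene end, folds were 6.60 in infarct, 3.46 in untreated, 4.74 in IL-4, 6.40 in WT and 9.46 in knockout. At the inner one, 51981 bp from the same gene end, they were 3.47 in infarct, 4.66 in IL-4, 4.56 in WT and 5.24 in knockout, with none in untreated. Both starts had a peak in infarct, IL-4, WT and knockout, and the outer one also in untreated. The outer one was covered more narrowly in WT H3K4me3, with 1261 against 1876 covered bases. Neither start had a sham peak, although the sham list held 6 peaks inside the gene, the highest with a fold of 7.35.

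In the second phase, from triose phosphate to pyruvate, Gapdh, the triose phosphate dehydrogenase (chromosome 6, 125161852 to 125166467), had folds of 5.41 in infarct, 4.14 in IL-4, 4.56 in WT and 4.65 in knockout, and the widest knockout cover of the members, 3234 bp. Pgam1, phosphoglycerate mutase (chromosome 19, 41911871 to 41918665), had NPM1 folds of 7.71 in infarct on 75 reads and 7.74 in IL-4 on 92 reads, with H3K4me3 folds of 5.77 in WT and 5.53 in knockout. Eno1, the widely used enolase, had folds of 7.30 in infarct, 7.56 in IL-4, 6.81 in WT and 6.75 in knockout. It also had the highest H3K4me3 pileups of the members, 67 reads in WT and 324 in knockout.

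Pkm, which encodes the pyruvate kinases M1 and M2 (chromosome 9, 59656576 to 59679372), had NPM1 folds of 5.81 in infarct on 91 reads and 5.79 in IL-4 on 90 reads. Its H3K4me3 folds were 4.11 in WT on 46 reads and 4.05 in knockout on 276 reads. By fold these stood at percentiles 76.2, 78.0, 29.2 and 9.45 of start peaks in their lists, and by pileup at 98.5, 97.3, 86.8 and 94.4. Pgk1, phosphoglycerate kinase, had folds of 5.70 in infarct, 4.05 in IL-4, 5.60 in WT and 5.38 in knockout. Bpgm, which makes 2,3-bisphosphoglycerate and is best known from red cells, was among the lowest for NPM1, at 3.22 in infarct and 2.51 in IL-4 on 12 reads each, with 5.69 in WT and 8.83 in knockout. It was the only member whose infarct NPM1 start peak did not overlap a WT H3K4me3 peak.

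Eno2, the neuronal form, had no infarct NPM1 start peak, a fold of 2.42 in IL-4, and H3K4me3 folds of 4.75 in WT and 6.51 in knockout. Eno3, the muscle form, had no NPM1 peak and no WT H3K4me3 peak within 1 kb of its start, and a fold of 2.81 in knockout, at percentile 1.38 of start peaks by fold and 47.2 by pileup. Both had a sham NPM1 peak at the far end of the gene, at 2.89 for Eno2 and 3.44 for Eno3. Eno3 also held peaks inside the gene, more than 1 kb from its listed start. The highest of these had folds of 3.62 in infarct, 2.98 in IL-4 and 2.76 in WT H3K4me3. WT H3K4me3 also had a gene-end peak at Eno3, with a fold of 2.38. Inside Eno2 the highest NPM1 folds were 3.36 in sham, 2.69 in infarct and 2.39 in IL-4.

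Of the lactate genes, Ldha, the subunit that favours lactate formation (chromosome 7, 46842274 to 46855627, plus strand), had start folds of 3.52 in infarct, 5.75 in IL-4, 5.09 in WT and 6.97 in knockout. Pileups there were 22, 44, 32 and 206 reads, and the sham and untreated lists had none. Its NPM1 peak was thus higher in IL-4 than in infarct on both measures, unlike those of Hk2 and Pgam1, whose folds differed little. Ldhb, the subunit that favours pyruvate, had an infarct NPM1 fold of 4.22 on 16 reads, none in IL-4, and 3.32 in WT and 8.95 in knockout H3K4me3. The proton-linked lactate carriers Slc16a1 and Slc16a3 (MCT1 and MCT4) were both marked, Slc16a1 with folds of 4.77, 5.15, 6.18 and 7.55 in infarct, IL-4, WT and knockout. Slc16a3, the exporter of glycolytic cells, had lower folds in each of the 4, of 2.95, 3.19, 3.63 and 5.10.

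Among the pyruvate dehydrogenase kinases, Pdk1, a known HIF-1 target, had folds of 4.29 in infarct, 5.44 in IL-4, 6.22 in WT and 9.16 in knockout, and Pdk2 had 4.98, 3.98, 5.18 and 8.47. Pdk3 (chromosome X, 93764616 to 93832150) was bare at its start in all 4 NPM1 lists and in WT H3K4me3. In knockout H3K4me3 its start carried a peak with a fold of 9.05 on 89 reads and 1444 covered bases. Pdk4, the form induced by fasting and fatty acids (chromosome 6, 5483351 to 5496278), had no NPM1 start peak in any list, and H3K4me3 folds of 3.32 on 12 reads in WT and 7.74 on 26 reads in knockout. At their starts the kinases therefore split into a pair with NPM1 peaks and a pair without. The pair without had the least WT H3K4me3 there. Inside Pdk3, however, all 4 NPM1 lists held peaks more than 1 kb from both ends and from its start. The highest had folds of 4.81 in sham, 4.71 in infarct, 4.75 in untreated and 3.86 in IL-4. WT H3K4me3 had an inside peak too, with a fold of 4.59, and knockout had none.

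Hif1a (chromosome 12, 73901324 to 73947554, plus strand), the regulator, had the highest infarct NPM1 fold of the members, 9.01 on 50 reads, at percentile 97.2 of all start peaks by fold and 89.7 by pileup. In IL-4 the fold was 7.72 on 43 reads, in untreated 3.46 on 7 reads, and sham had no peak. Its H3K4me3 folds were 5.52 in WT and 8.35 in knockout. The peaks lay at its listed start 6543 bp inside the outer end, and at that end itself only the knockout list had one, with a fold of 3.51.

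**Figure D2:**
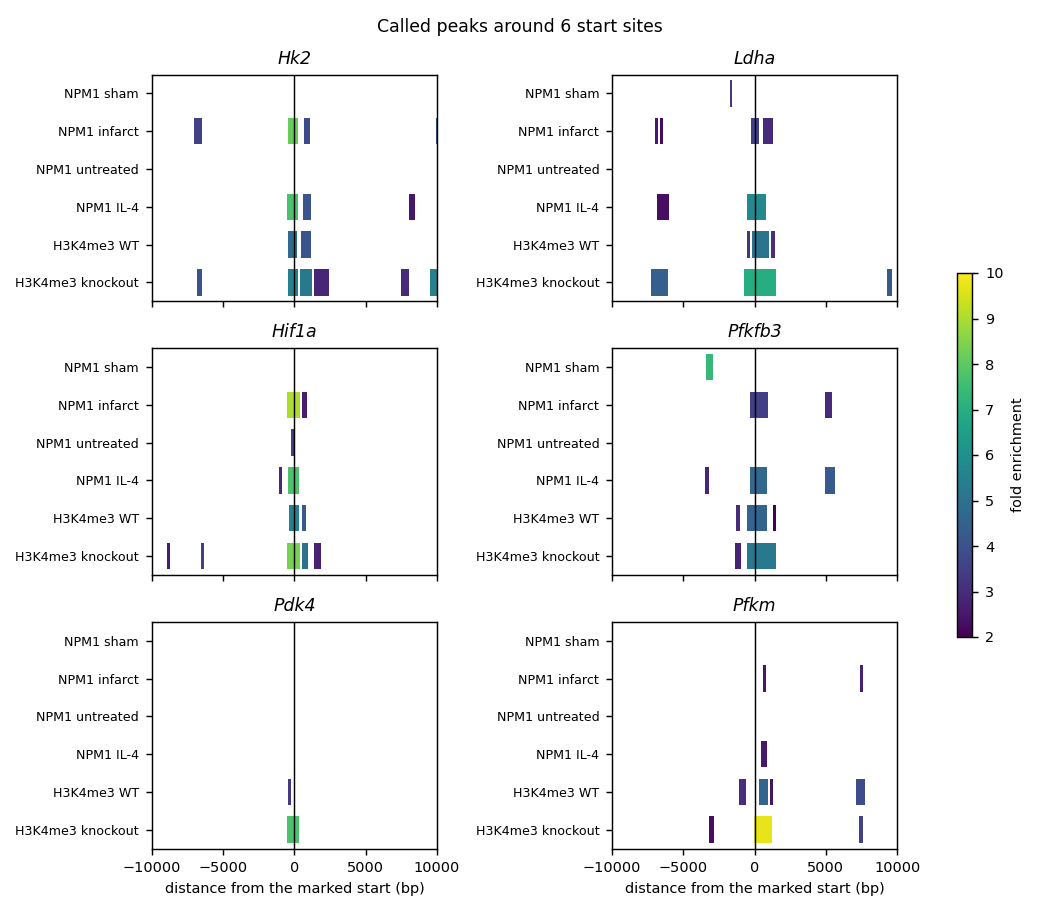
Called peaks within 10 kb of the marked start (black line) of Hk2, Ldha, Hif1a, Pfkfb3, Pdk4 and Pfkm in the 6 libraries, with the 5′ side of the gene to the left and colour for fold enrichment. At Hk2, Ldha and Hif1a the NPM1 and H3K4me3 peaks stack on the start, while Pdk4 shows only H3K4me3 at its start and Pfkm only narrow NPM1 peaks beside its start.

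All 5 members of the pentose phosphate pathway had start peaks in infarct (49.6% of all genes with a listed start) and IL-4 (49.5%). All 5 also had them in WT (57.9%) and knockout (62.8%). In sham (6.07%) and untreated (5.16%) 0 had one, which lay near those shares. G6pdx, the entry enzyme that sets the flux into NADPH (chromosome X, 74409483 to 74428880), had folds of 5.68 in infarct, 5.69 in IL-4, 4.90 in WT and 4.77 in knockout. Pgd, the second NADPH-making enzyme (chromosome 4, 149149991 to 149166705), had 4.48, 5.88, 4.82 and 5.41. Pgls, the lactonase between them, had the lowest NPM1 folds of the branch, 2.96 and 2.70. Of the enzymes of the reversible arm, Tkt had NPM1 folds of 4.76 and 4.10 and Taldo1 4.01 and 3.69 in infarct and IL-4. Taldo1 had the widest infarct NPM1 cover of the members, 1767 bp, and WT H3K4me3 cover of 1701 bp. Its H3K4me3 folds were 4.13 in WT and 6.43 in knockout.

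In infarct and IL-4, NPM1 cover of the members was highest next to the marked start. In infarct 29 of 33 and in IL-4 30 of 33 start peaks had their summit within 500 bp of the marked start, at a median of 39 bp and 42 bp upstream. All 33 IL-4 start peaks and 32 of 33 infarct ones overlapped a WT H3K4me3 peak. Start peaks reach within 1 kb of the marked start by definition, and that start was picked by its H3K4me3 where several are listed. Both counts are therefore partly set by the choice, and their shares over all genes were not taken. Averaged over the 37 members in 100-bp bins, infarct peaks covered at most 76% of bases, just downstream of the start, and IL-4 peaks 81.1%, just upstream. The same maximum over all genes was 36.7% in both. WT and knockout H3K4me3 reached 82.3% and 94.6% in members, against 47.4% and 57.8% in all genes. H3K4me3 leaned downstream, with more covered bases after than before the start at 26 of 35 members in WT (74.3%, against 67.9% of all marked genes) and 28 of 37 in knockout (75.7% in both). NPM1 did not lean one way, with 15 of 33 in infarct (45.5%, against 51.3% of all genes with a peak) and 18 of 33 in IL-4 (54.5%, against 50.8%).

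**Figure D3:**
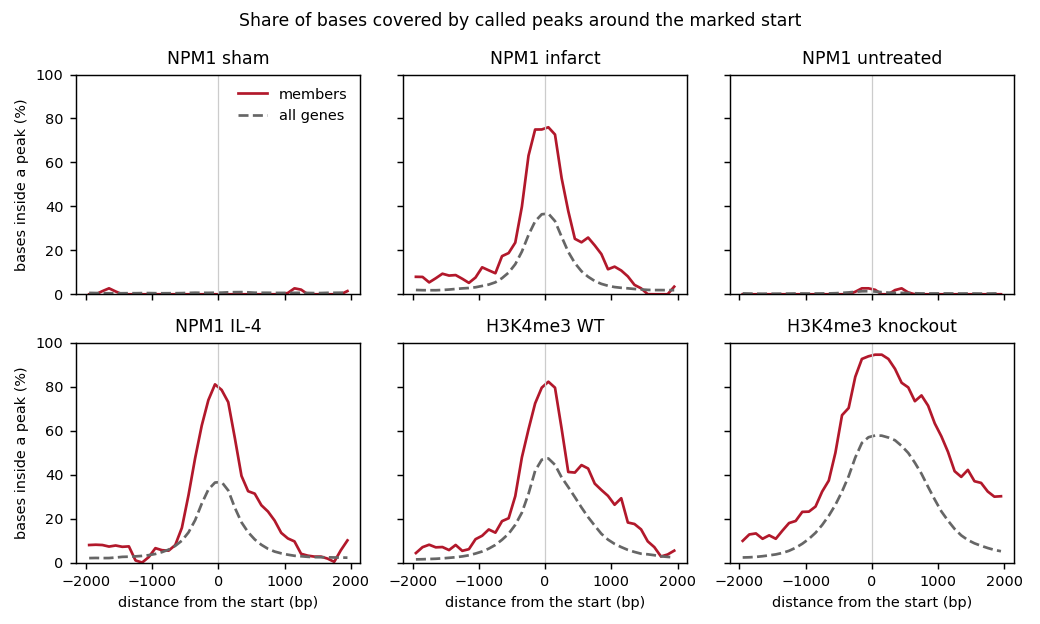
Share of bases inside a called peak in 100-bp bins around the marked start (negative is upstream), for the 37 members (solid) and for all 17491 genes with a listed start (dashed), 1 panel per library. Member curves peak at 76% in infarct, 81.1% in IL-4, 82.3% in WT and 94.6% in knockout, and stay at or below 2.7% in sham and untreated.

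Among members with a start peak, NPM1 pileups were above those of other genes more clearly than folds were. The median member pileup was 31 reads in infarct against 22 for all genes with a start peak, and 37 against 25 in IL-4. Median folds were 4.77 against 4.34 in infarct and 4.85 against 4.15 in IL-4. For H3K4me3 the 2 measures parted. Median pileups were 35 against 30 reads in WT and 201 against 176 in knockout, while median folds were 4.75 against 5.10 and 6.42 against 7.87. A fold divides by the local background, which was higher around member starts. Its median was 6.34 against 4.7 reads in WT and 35.3 against 18.6 in knockout, and 5.72 against 4.08 in infarct.

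The order of the members by NPM1 was much alike in infarct macrophages and IL-4 BMDM. Over the 32 members with a start peak in both, log2 folds had a Pearson r of 0.85 and a Spearman rho of 0.80, and over the 7504 genes with both the values were 0.82 and 0.81. These points share base composition and local mappability across libraries, and genes are not replicates. The 7 members at or above percentile 90 of NPM1 start peaks by fold in infarct were Hif1a, Hk2, Pgam1, Pfkfb4, Aldoa, Eno1 and Pfkp, and their folds in IL-4 were 7.22 to 7.74. At the low end, Pfkm, Slc16a3, Pgls and Bpgm had folds of 2.48 to 3.22 in infarct and 2.51 to 3.19 in IL-4. Against H3K4me3 the order of infarct NPM1 was looser, with r of 0.40 in WT and −0.04 in knockout over 33 members (0.48 and 0.22 over all genes). Of the 31 members with a HIF-1 core word in the window, 28 had an infarct start peak, with a median fold of 4.94, and 27 an IL-4 one, with a median of 5.12. Of the 6 without it, 5 had an infarct start peak, with a median of 3.99, and 6 an IL-4 one, with a median of 3.66. Median G and C were 62.8% with the word and 54.8% without it. The same split was not taken over all genes, and the part of base composition in the difference in folds was not tested.

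**Figure D4:**
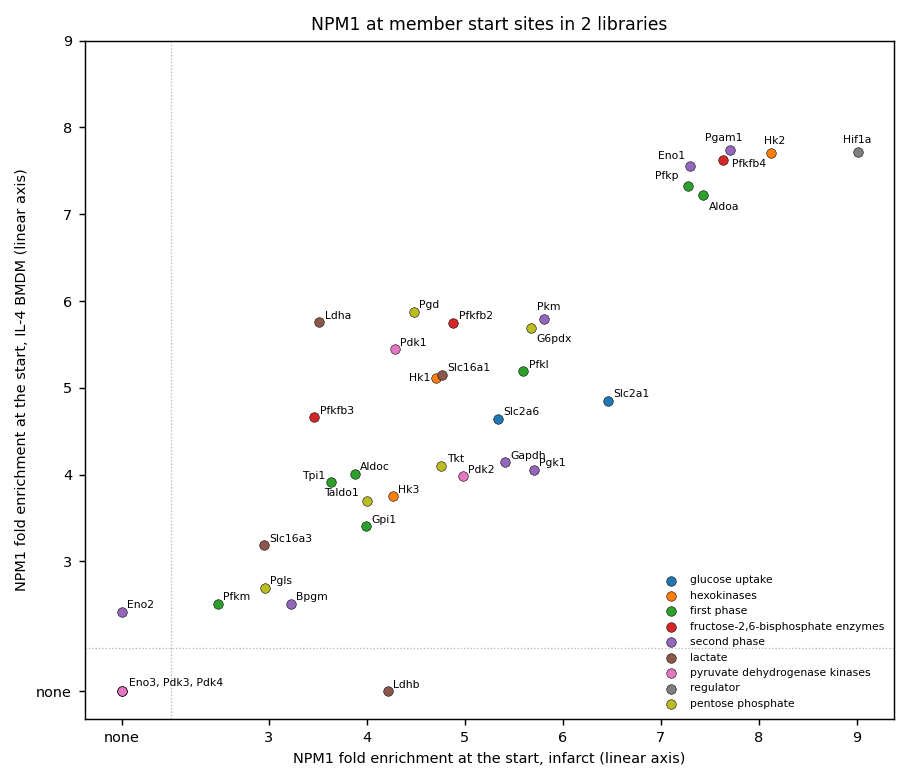
Fold enrichment of the NPM1 peak at the marked start in infarct cardiac macrophages (x axis) and IL-4-treated BMDM (y axis), 1 point per member, coloured by pathway step; points beyond a dotted line had no peak in that library. A group of 7 members stands above 7 on both axes, Ldhb and Eno2 have a peak in 1 library each, and Eno3, Pdk3 and Pdk4 in neither.

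H3K4me3 at member starts was wider and deeper in the knockout library than in WT, as it was at nearly all genes. At gene ends 5 members had a peak in knockout only (8.37% of all genes), 0 in WT only (3.73%) and 31 in both (53.4%). The 5 were Aldoa, Pfkfb4, Ldha, Pdk3 and Hif1a, and at 4 of them, all but Pdk3, WT H3K4me3 lay at a start further inside. At listed starts 2 members, Eno3 and Pdk3, were in knockout only (7.38%), 0 in WT only (2.51%) and 35 in both (55.4%). At gene ends 30 of the 31 members marked in both had more covered bases in knockout (97.5% of all such genes). Over the 35 at starts the median cover was 1061 bp in WT and 1928 bp in knockout, and 34 were wider in knockout (98.2% of all genes marked in both). The median difference was 786 bp for members and 593 bp for all genes. The exception was Pfkm, with 1292 bp in WT and 1267 bp in knockout.

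Summit pileups were 12 to 67 reads in WT and 26 to 324 in knockout, and higher in knockout at 35 of the 35. The ratio of knockout to WT had a median of 5.29 in members and 5.63 in all genes, while the genome-wide background was 2.49 against 2.92 reads. The member median was thus slightly below that of all genes. The ratio ran from 2.17 at Pdk4 (95% exact interval 1.06 to 4.71, for counting error only) to 9.24 at Pfkm (6.10 to 14.6). Pfkm was at percentile 98.5 of all genes, Taldo1, with a ratio of 7.94, at percentile 93.9 and Hif1a, with 7.46, at percentile 89.8. Slc2a6, at 3.56, and Pdk4 were at percentiles 8.65 and 3.7. Fold was higher in knockout at 29 of 35 members, against 94.8% of all genes, and the 6 exceptions were Pfkp, Pgk1, Pgam1, Eno1, Pkm and G6pdx. Of these, Pfkp had 9.44 in WT and 8.25 in knockout, and the other 5 differed by less.

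Pfkm differed further at its inner starts. At those 15882 and 15967 bp inside, which share a peak, H3K4me3 folds were 3.31 in WT and 12.9 in knockout, and no NPM1 list had a peak. Of 6 fibroblast genes, 4 had a gene-end peak in knockout (Col1a1, Col1a2, Col3a1 and Postn; 61.8% of all genes) and 1 in WT (57.1%). Their summed covered bases were 2975 in knockout and 319 in WT. The same sums were also larger in knockout than in WT for the macrophage genes (14641 against 6765), the endothelial genes (2730 against 1077), the T and B cell genes (2228 against 572), the neutrophil genes (1274 against 1144) and the cardiomyocyte genes (406 against 200). Counts of genes with a gene-end peak went both ways, however. From WT to knockout, endothelial genes went from 3 to 2 of 5 and neutrophil genes from 2 to 1 of 5. Cardiomyocyte genes went from 1 to 0 of 7 and macrophage genes from 7 to 8 of 8. T and B cell genes went from 1 to 2 of 5, beside the same shares of all genes. The part of other cells in the H3K4me3 difference was not tested, and neither deposited peak values nor labels give a spike-in that would set the libraries on 1 scale.

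**Figure D5:**
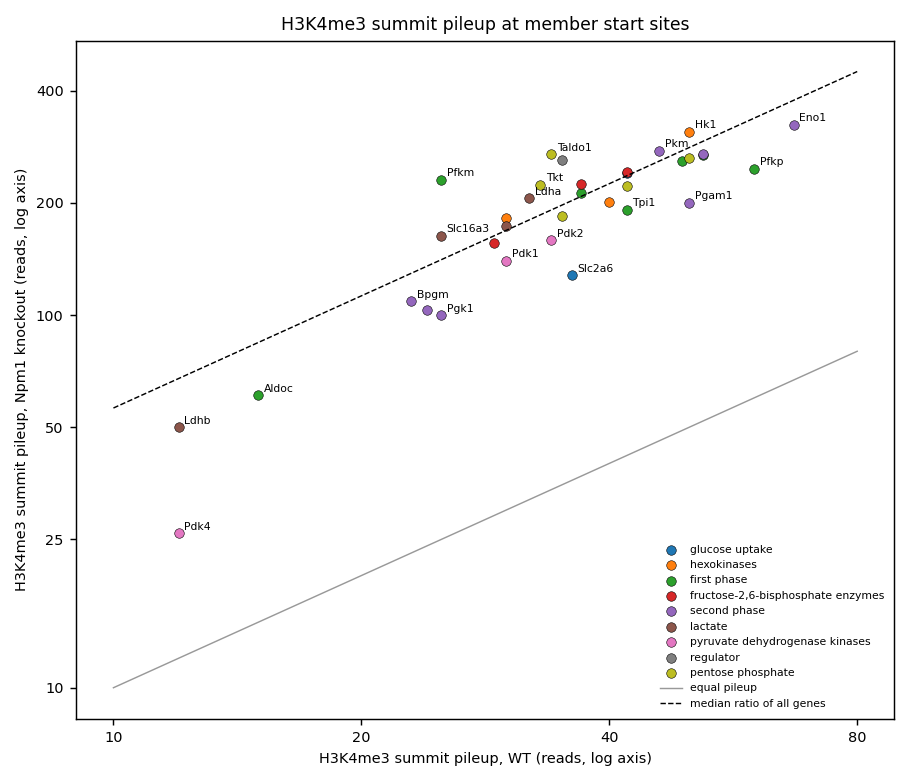
H3K4me3 summit pileup at the marked start in WT (x axis) and Npm1-cKO (y axis) infarct macrophages, in reads on log axes, for the 35 members marked in both; the solid line is equality and the dashed line the median ratio over all genes, 5.63. All 35 points lie above equality and they scatter around the dashed line, with Pfkm farthest above it and Pdk4 farthest below.

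At the end opposite the start, NPM1 peaks of the members had folds of at most 3.86. The highest H3K4me3 folds at that end were those of Aldoc, 6.36 in WT and 10.2 in knockout, where the gene Pigs begins or ends within 1 kb. Peaks that reached into the gene more than 1 kb from both ends were found in 31 members in infarct (49.9% of all genes), 29 in IL-4 (51.8%), 20 in sham (38%) and 5 in untreated (25.3%). In WT and knockout H3K4me3 there were 31 each (50.9% and 52.3%). Members had a median length of 18553.5 bp against 17170 bp for all genes. Some of the inside peaks lay at inner starts, but none of the 36 in the sham list lay within 1 kb of a listed start.

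Of 28 further enzymes and regulators, such as the mitochondrial pyruvate carriers Mpc1 and Mpc2, the pyruvate dehydrogenase subunits Pdha1, Pdhb and Dlat, and the HIF hydroxylases Egln1, Egln2 and Egln3, 25 had an NPM1 gene-end peak in infarct (50.6% of all genes) and 26 in IL-4 (51.2%). In sham 1 had a peak, Mpc1 (10.9% of all genes), and in untreated 1, Slc2a8 (6.71%). H3K4me3 was at 27 in WT (57.1%) and 27 in knockout (61.8%). Of 16 isoenzymes used mainly in other tissues, such as the testis forms Pgk2 and Ldhc, 7 had an NPM1 gene-end peak in infarct, 4 in IL-4, 1 in sham (Slc16a7) and 1 in untreated (Ldhc), with H3K4me3 at 6 in WT and 6 in knockout, beside the same shares of all genes. Among them, Pgk2, Eno4, Slc2a2, Tktl1 and Tktl2 had none in any list.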

How the data were processed

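The submitters' processing notes name MACS2 2.2.7.1, deepTools, Bowtie2, bcl2fastq 2.17 and the build mm10. The sources used here do not give their settings, a control library, a spike-in or duplicate removal. Each deposited narrowPeak list was called on 1 library. Its score, its fold (a linear ratio of summit pileup to local background), its −log10 p and its −log10 q are the authors' deposited values. The smallest −log10 p was 2.01 to 2.02 in each list, and 5.01% to 27.8% of a list's peaks had a q above 0.05, so weak peaks were kept. Summit pileup and local background in reads were decoded from fold and p, assuming a pseudocount of 1 and a Poisson p, neither of which is stated in the sources used here. Nearly all summits gave a solution within 0.001. Any 2 lists also differ in overall depth and enrichment, and a missing peak was only not called at that depth.

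Peaks were joined to genes with pandas 2.3.3, numpy 2.4.6 and scipy 1.17.1 under Python 3.11.15. Figures were drawn with matplotlib 3.10.9. Genes were matched by symbol to RefSeq's GRCm38.p6 table, which held all 38 members, and positions are 1-based. The planned window was 1 kb around either gene end. Counts at listed starts, thinning to the lowest background and the marked start were added after the data were seen. Thinning scaled the summit pileup and local background of each called peak and kept peaks with −log10 p of 2 or more. No reads were drawn at random, so sampling noise at lower depth was not included. With 1 library per group no test was run, and most counts stand beside the share over all genes. Counts of summits near the start, of overlaps with H3K4me3 peaks and of members split by HIF-1 core word have no such share. The pathway members and all lists were chosen with earlier results of these data known. Values in every library are given for the genes of the rate-setting steps, for the member of each step with the highest −log10 q for each target, for members that went against the direction of a pair, and for members without a gene-end peak. The remaining members are given by their values at the start in most cases, and by counts otherwise. Scripts were tested on simulated data with planted genes and pileups. Intervals cover counting error only.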

Additional observations from a re-analysis of the deposited data

How the results depend on the processing

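Of 240 alternative values for the counts at gene ends, the covered bases and the inside peaks, 206 stayed within 1.5 times the reported value and 34 moved further, mostly where few members were called. With −log10 q of 5 or more, gene-end counts were 0 in sham and 0 in untreated, with 0 in sham only, 0 in both infarct and sham and 0 in both IL-4 and untreated. With q of 0.05 or less, sham had 2 members, 1 of them alone and 1 shared with infarct, and equal list lengths of 52977 peaks gave the same 2, 1 and 1. With a fold of 4 or more, sham had 0, untreated 0 and IL-4 17, with 0 in sham only, 0 shared by infarct and sham and 0 by IL-4 and untreated. A window of 2.5 kb gave 10 in sham, 1 in sham only and 9 in both. At the first end by strand, and at any listed start (added later), sham had 0, sham only 0 and both 0, and knockout-only H3K4me3 was at 3 and 2 members against 5. The median H3K4me3 difference in covered bases was 733 bp within 2 kb and 419 bp within 1 kb. Inside peaks with −log10 q of 5 or more were found in 1 member in sham, 19 in infarct, 1 in untreated, 19 in IL-4 and 19 in WT. Taking the peak of highest −log10 q in place of highest fold altered 2 of 130 gene-end folds.

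No paired analysis was possible because each group has 1 library. Sham and untreated backgrounds of 1.29 and 1.31 reads leave weaker NPM1 at member starts undetected there. The low sham and untreated counts hold for called peaks at these depths.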
